A study of Mus musculus with 12 samples.

Results

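The genes described here encode the proteins of the cytosolic ribosome of mouse CD8 T cells. They were taken from the per-library count tables by symbol: symbols that start with Rpl or Rps followed by a digit, and Rplp0, Rplp1, Rplp2 and Rpsa. Of 352 symbols with such a start, 244 ending in -ps and a number (processed pseudogenes) and 11 Rps6k kinases were dropped, and 86 of the remaining 97 reached a mean level of 5 CPM, counts per 1e6 counts of the library, over the 12 libraries. These 86, out of 46078 genes listed, comprise 43 large subunit genes, 31 small subunit genes, the 3 P stalk genes, 4 paralogs of subunit genes, 4 retrocopies or pseudogenes, and Rps19bp1, which encodes a protein that binds Rps19 and is not a subunit. The rule itself uses symbols and the mean level over all libraries, and no difference between cultures. Just inside the level threshold were Rpl39-ps with 6.37 CPM and Rps27rt with 9.47 CPM, and just outside it were Rps3a3 with 3.67 CPM and Rps4l with 2.27 CPM.

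The cells were CD8 T cells from the spleen of C57BL/6 mice, cultured with cytokines that maintain CD8 T cells, and RNA was isolated at day 7. The series asks how culture conditions can generate cells like the resident memory T cells of tissues (Trm). The cultures contained IL-2 + IL-15 + TGFβ + RA, IL-2 + IL-15 + TGFβ, IL-2 + IL-15 + RA, or IL-2 + IL-15 alone, so IL-2 and IL-15 were present in all of them; RA is retinoic acid, given as all-trans retinoic acid in the design text. Each condition has 3 libraries described as biological replicates. Nothing states that these came from separate mice, so p-values measure only the spread between these libraries, which may be technical.

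A ribosome has a large and a small subunit, each built from ribosomal RNA and one copy of most of its proteins, so cells make the proteins in matched amounts. The P stalk, made of Rplp0, Rplp1 and Rplp2, is the arm of the large subunit that recruits elongation factors. In mammals most of these mRNAs begin with a short run of pyrimidines at the 5′ end, the TOP motif, through which mTORC1 and Larp1 control their translation. T cells raise ribosome production when activated and lower it as they return to rest.

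The bases around annotated start sites are shown because this run of pyrimidines is the sequence feature the family is known for. Windows of 30 bases centred on the start were taken from RefSeq promoters (GRCm38.p6), which hold an entry for 64 of the 86 genes, in 75 windows, and none for the other 22. Each sequence reads 5′ to 3′ on the strand of the gene. Capitals mark a run that starts with C within 5 bases of the start site and goes on with at least 4 bases, each C or T. The first 4 belong to genes that the results below return to, Rps27 and its retrocopy Rps27rt follow as a near-identical pair, and Rps12 and Rplp0 are shown because their windows hold no such run.
Rpl12 (chr2:32961697-32961726, + strand): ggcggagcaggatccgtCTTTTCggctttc
Rpl38 (chr11:114668565-114668594, + strand): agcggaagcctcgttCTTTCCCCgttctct
Rps26 (chr10:128626492-128626521, - strand): gtcgggcaagccgccggatCCTCTTTCgag
Rpl28 (chr7:4792950-4792979, + strand): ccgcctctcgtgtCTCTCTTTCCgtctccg
Rps27 (chr3:90213634-90213663, - strand): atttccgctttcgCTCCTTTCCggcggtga
Rps27rt (chr9:114982725-114982754, - strand): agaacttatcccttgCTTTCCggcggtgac
Rps12 (chr10:23787195-23787224, - strand): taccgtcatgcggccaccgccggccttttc
Rplp0 (chr5:115559452-115559481, + strand): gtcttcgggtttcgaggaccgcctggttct

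Such a run was found in 32 of the 75 windows (42.7%), against 6027 of 32851 windows (18.3%) over all promoters of that collection. On the opposite strand, where a run ends with a G after at least 4 bases that are each A or G, the shares were 13.3% and 20.4%. A match describes letters at an annotated start only, and a window without a match says nothing about the mRNA made in these cells.

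Library totals ran between 18300206 and 33477037 counts, and each of the 86 genes had at least 55 counts in every library. Markers of CD8 T cells (Cd8a, Cd8b1, Cd3d, Cd3e, Cd3g, Trac) summed to 7430 to 7712 CPM with TGFβ + RA, 6653 to 6882 CPM with TGFβ, 3785 to 4145 CPM with RA and 3832 to 4396 CPM with IL-2 + IL-15. Cd8a was the largest part, averaging 3154 CPM with TGFβ + RA, 2509 with TGFβ, 977 with RA and 1166 with IL-2 + IL-15. Trac averaged 551, 591, 513 and 564 CPM in the same order. Cd8b1 averaged 1293 CPM with TGFβ + RA against 1697 CPM with TGFβ. The 3 CD4 T cell markers, nearly all of it Zbtb7b, summed to 26.7 to 32.8 CPM with TGFβ + RA, 30.0 to 35.9 CPM with TGFβ, 70.6 to 87.1 CPM with RA and 65.4 to 73.6 CPM with IL-2 + IL-15, so they were lower with TGFβ as the ribosomal protein genes were. Markers of NK cells were the highest in RA, at 23.1 to 65.9 CPM for a list of 4, against 5.79 to 8.84 CPM with TGFβ + RA, 2.95 to 4.41 CPM with TGFβ and 10.6 to 22.6 CPM with IL-2 + IL-15. The B cell marker Cd79b averaged 23.9 CPM with TGFβ + RA, 29.7 CPM with TGFβ, 16.2 CPM with RA and 14.3 CPM with IL-2 + IL-15, while Ms4a1, another B cell marker, had at most 1 count in any library. Myeloid and dendritic markers summed to 3.44 to 27.7 CPM with TGFβ + RA, 7.77 to 12.2 CPM with TGFβ, 11.0 to 24.5 CPM with RA and 37.6 to 48.5 CPM with IL-2 + IL-15. Itgam made up most of this sum with IL-2 + IL-15, whereas Lyz2, S100a8 and S100a9 had 323, 97 and 177 counts in library 3 of TGFβ + RA and at most 23, 0 and 1 in any other library. Without that library 38 ribosomal protein genes were called lower in TGFβ + RA against TGFβ and 30 in the interaction, against 40 and 33 with it, and the counts in TGFβ + RA against RA and against IL-2 + IL-15 were as given below. Mitochondrial transcripts took 1.31% to 1.47% of counts with TGFβ + RA, 1.69% to 1.80% with TGFβ, 1.75% to 1.89% with RA and 1.84% to 2.10% with IL-2 + IL-15. Library 3 of RA stood farthest from its own group, with a chi-square of 24.0 and 20.4 per degree of freedom against the other two, where a value of 1 is counting noise. The part of these markers and of the mitochondrial share in the results below was not tested.

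Ribosomal protein genes took a smaller part of the counts in both cultures with TGFβ. The 86 genes together made up 4.57%, 5.16% and 5.22% of counts in the libraries with TGFβ + RA and 5.55%, 5.55% and 5.78% with TGFβ. They made up 9.09%, 10.1% and 8.73% of counts with RA and 9.17%, 8.84% and 8.58% with IL-2 + IL-15. The 6 libraries with TGFβ were all below the 6 without it, and the 2 conditions with TGFβ did not overlap each other either. The group means were 4.98% ± 0.355 with TGFβ + RA, 5.63% ± 0.134 with TGFβ, 9.30% ± 0.694 with RA and 8.87% ± 0.295 with IL-2 + IL-15 (SD, n = 3 each). The 95% Wilson interval of a single library spans at most 0.012 percentage points either way, which covers counting error only. Counts are relative to the total of the library, so a smaller share of ribosomal protein mRNA per cell, a larger amount of other mRNA, and a different mix of cells cannot be told apart.

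**Figure D1:**
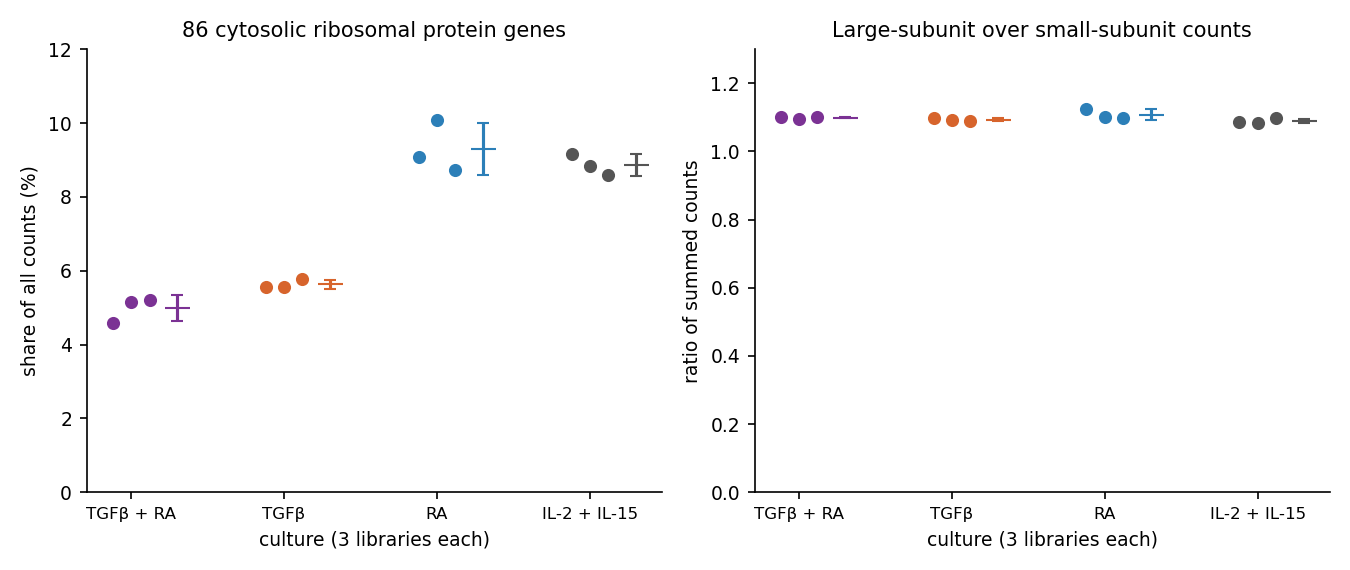
Left, share of all counts taken by the 86 ribosomal protein genes (%) and right, summed counts of large subunit genes over those of small subunit genes, by culture, with libraries as points and mean ± SD beside them. In the left panel all 6 libraries with TGFβ lie between 4.57% and 5.78%, and the 6 without it between 8.58% and 10.1%, while the ratio on the right stays between 1.08 and 1.13.

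Both subunits kept nearly the same proportion in all cultures. Large subunit genes had 1.08 to 1.13 times the summed counts of small subunit genes in every library, with group means of 1.10 with TGFβ + RA, 1.09 with TGFβ, 1.11 with RA and 1.09 with IL-2 + IL-15. Across the 86 genes, the order of levels was nearly the same in any pair of cultures, with Spearman's rho between 0.969 and 0.995. The processed pseudogenes left out by the rule took 0.036% of counts with TGFβ + RA, 0.039% with TGFβ, 0.067% with RA and 0.063% with IL-2 + IL-15.

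Levels per kilobase of transcript were unequal, although most subunits are present once in a ribosome. The length is that of a single annotated transcript per gene, which may differ from the transcript made in these cells. For Rps20 it was 3706 bases, which gave 200 CPM per kb. Sequence shared with other transcripts, 98.6% of the 50-base words of Rps27 and 86.7% of those of Rps18, adds to the uncertainty. The order of genes and kinds below is therefore uncertain. The highest were the small subunit genes Rps18 (2476 CPM per kb), Rps27 (2353) and Rps15 (2163), with the large subunit gene Rpl32 (2358) and the stalk gene Rplp0 (2060). The median level was 1963 CPM per kb for the P stalk, 1382 for small subunit genes and 987 for large subunit genes. The paralogs had a median level of 115 CPM per kb and the retrocopies 32.8. The lowest were Rps3a2 (13.4), Rps19bp1 (15.0), Rps27rt (25.3), Rpl24 (30.0) and Rpl37rt (40.3). Rpl24 is uncertain for a further reason, since 47.0% of its exonic length overlaps another gene on the same strand. How the counting treated such reads is not given in the sources used here.

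Ribosomal protein mRNAs fell as a block with TGFβ alone. In TGFβ against IL-2 + IL-15 cultures, 83 of the 86 genes fell, 0 rose and 3 were not called at an adjusted p of 0.05 (edgeR quasi-likelihood test, Benjamini-Hochberg over 14009 genes); 22.4% of all tested genes were called lower and 20.7% higher. The median log2 fold change of the 86 was -0.70, at which a level fell by 38.3%, against 0.00 for all tested genes and 0.01 for 2292 other genes of high level, those averaging 100 CPM or more. The median was -0.70 for the 43 large subunit genes and -0.70 for the 31 small subunit genes, and every one of both kinds fell. In 84 of the 86 the 3 TGFβ libraries lay below the 3 IL-2 + IL-15 libraries, as they did for 28.7% of all tested genes.

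Rpl12, a protein of the stalk base, moved most. It had 877, 948 and 980 CPM with TGFβ, against 1945, 1947 and 1901 CPM with IL-2 + IL-15, with a log2 fold change of -1.05 ± 0.08 (SE, adjusted p = 3.97e-07). The groups were far apart and neither was spread widely. Rpl10a, a protein of the mobile L1 stalk near the exit site for tRNA, had 357, 351 and 368 CPM with TGFβ, against 736, 703 and 713 CPM with IL-2 + IL-15, with a log2 fold change of -1.0 (adjusted p = 2.83e-07). Rpl32 had 810, 804 and 831 CPM with TGFβ, against 1718, 1556 and 1615 CPM with IL-2 + IL-15, with a log2 fold change of -1.0 (adjusted p = 4.47e-07). Rps15, of the head of the small subunit, came next at -0.94 (adjusted p = 6.15e-07), followed by Rpl29 at -0.92 (adjusted p = 3.56e-07). These 5 had libraries without overlap between the conditions.

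At the other end, 3 genes were not called. Rps27l, a paralog of Rps27, had 40.7, 37.1 and 41.7 CPM with TGFβ, against 50.8, 42.6 and 40.9 CPM with IL-2 + IL-15, and these ranges overlap. Its log2 fold change was -0.17 ± 0.10 (adjusted p = 0.203). Rps19bp1 (-0.12 ± 0.09, adjusted p = 0.314) and the retrocopy Rpl37rt (-0.22 ± 0.11, adjusted p = 0.129) were the others. The smallest log2 fold change among subunit genes was -0.33 ± 0.07 for Rpl37 (adjusted p = 0.00106). Asked instead to exceed a 1.5-fold change (edgeR glmTreat), 26 of the 86 passed, against 4.32% of all tested genes.

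The same comparison in the presence of RA gave a larger fall. In TGFβ + RA against RA cultures, 84 of the 86 genes fell and 0 rose, against 30.8% of all tested genes called lower and 29.4% called higher. The median log2 fold change was -0.95, at which a level fell by 48.2%. All 77 subunit and stalk genes were among the 84, and Rps27rt and Rps19bp1 were not called. Rpl12 had 696, 784 and 818 CPM with TGFβ + RA, against 1982, 2272 and 1812 CPM with RA, a log2 fold change of -1.40 (adjusted p = 1.32e-08). Rpl32 followed at -1.39, then Rps2 at -1.36, and Rps12 and Rpl35 at -1.35 each. Rps2 sits at the mRNA entry of the small subunit, and Rpl35 beside the exit of the nascent chain from the large subunit. The groups did not overlap in 83 of the 86 genes, against 32.8% of all tested genes called apart in that way, and 71 exceeded 1.5-fold by glmTreat, against 11.4% of all.

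These 2 comparisons share no library. Across the 86 genes their log2 fold changes had a Pearson correlation of 0.77 and a Spearman correlation of 0.73, as a description over genes, which are not independent replicates. The genes called lower in both were 82, of 83 in the first and 84 in the second. The share of all tested genes called lower in both was not counted. It cannot exceed the 22.4% called lower in TGFβ against IL-2 + IL-15. The change was larger with RA present in 83 of the 86 genes, which is the difference taken up in the interaction below. The 3 exceptions were Rps27, Rps27rt and the stalk gene Rplp1.

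**Figure D2:**
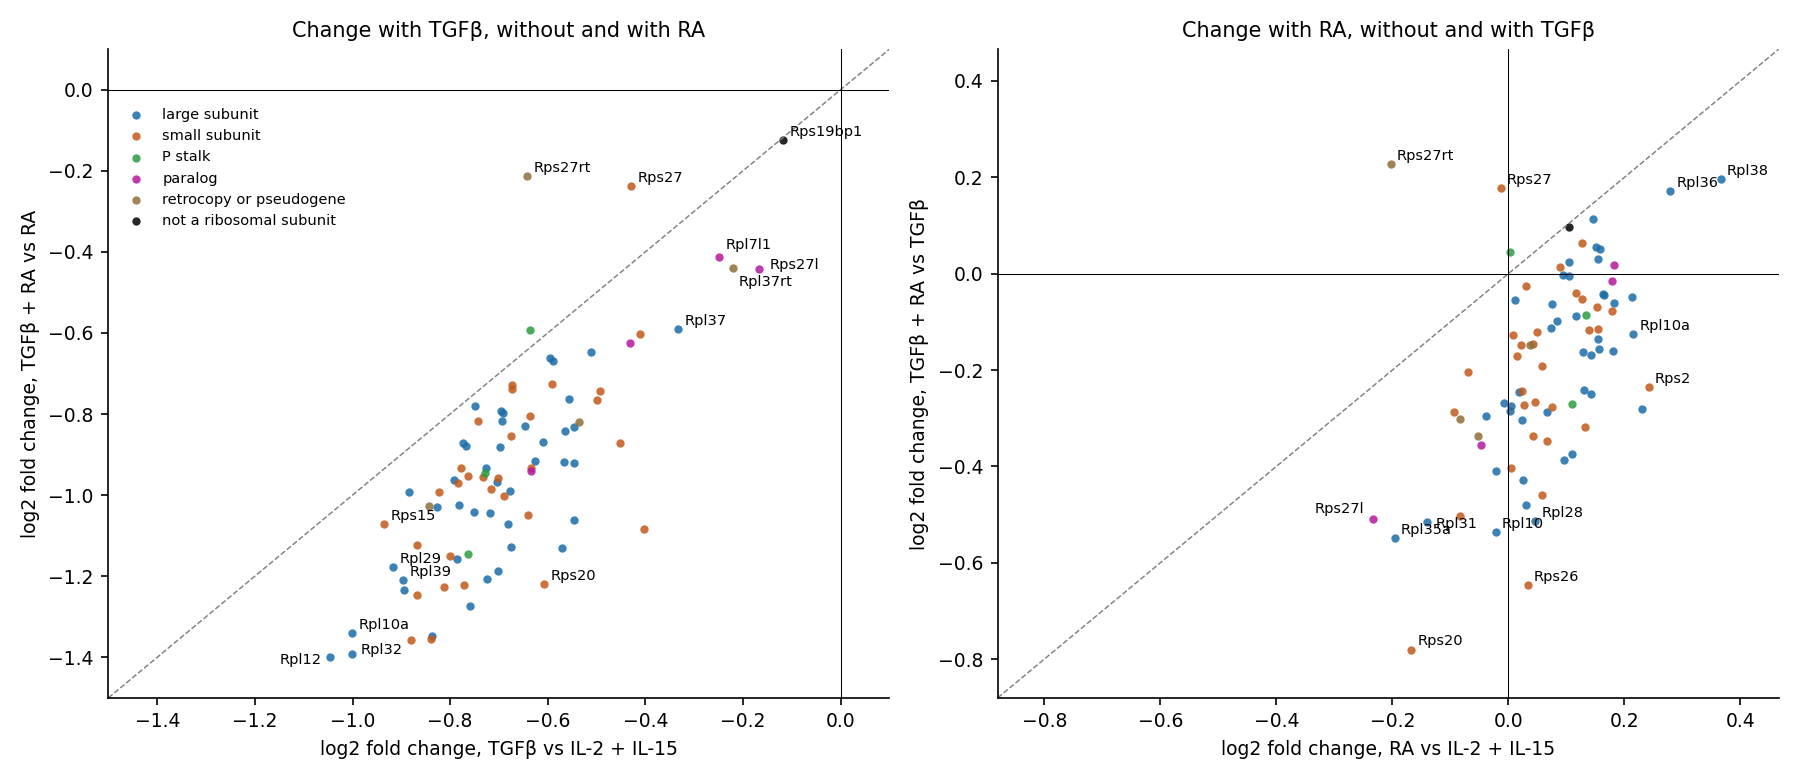
Each point is 1 of the 86 genes, coloured by kind, and the dashed line marks equal change. Left, the log2 fold change with TGFβ in the presence of RA (vertical) against that without RA (horizontal); right, the log2 fold change with RA in the presence of TGFβ (vertical) against that without TGFβ (horizontal). Most points lie below the dashed line in both panels, and in both panels Rps27, Rps27rt and Rplp1 lie above it.

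With both factors, set against IL-2 + IL-15 alone, 85 of the 86 genes fell. No gene rose, while 32.4% of all tested genes were called lower and 30.8% higher. The median log2 fold change was -0.86, at which a level fell by 44.9%, and only Rps19bp1 was not called (-0.02 ± 0.09, adjusted p = 0.856). The TGFβ + RA libraries lay below the IL-2 + IL-15 libraries in 85 of the 86, against 35.4% of all tested genes, and 61 genes exceeded 1.5-fold by glmTreat, against 13.6% of all. Rps20, a small subunit protein of the head region, moved most. It had 351, 406 and 410 CPM with TGFβ + RA, against 1011, 1024 and 1020 CPM with IL-2 + IL-15, a log2 fold change of -1.39 (adjusted p = 5.78e-10). Rpl12 (-1.33), Rpl35 (-1.32), Rps12 (-1.30) and Rpl32 (-1.25) came next. Rps27 fell least among the subunit genes, by 0.25 on the log2 scale (adjusted p = 0.0215), and this call was lost without library 3 of IL-2 + IL-15 (adjusted p = 0.054) or library 1 of TGFβ + RA (adjusted p = 0.0876).

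With RA added to TGFβ, part of the family fell further. In TGFβ + RA against TGFβ cultures, 40 of the 86 genes fell and 0 rose, with 22.7% of all tested genes called lower and 20.3% higher. The median log2 fold change was -0.16, at which a level fell by 10.6%, and single genes ran between -0.78 and 0.23. Of the large subunit genes 20 of 43 fell, and of the small subunit genes 16 of 31. The groups lay apart in 53 genes, against 28.7% of all tested genes, and 1 gene exceeded 1.5-fold by glmTreat, against 8.4% of all.

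Rps20 was that gene. It had 351, 406 and 410 CPM with TGFβ + RA, against 655, 667 and 683 CPM with TGFβ, with a log2 fold change of -0.78 ± 0.06 (adjusted p = 2.68e-07). Rps26, which lines the mRNA exit channel of the small subunit, had 178, 208 and 201 CPM with TGFβ + RA, against 306, 293 and 321 CPM with TGFβ (-0.65 ± 0.07, adjusted p = 6.87e-06). In both genes every TGFβ + RA library was below every TGFβ library. The next 3 were large subunit genes: Rpl35a at -0.55 ± 0.08 (adjusted p = 0.000128), Rpl10 at -0.54 ± 0.07 (adjusted p = 2.23e-05) and Rpl31 at -0.52 ± 0.06 (adjusted p = 7.05e-06). Rpl10 reaches towards the peptidyl transferase centre, and Rpl35a is among the genes mutated in the human disease Diamond-Blackfan anaemia.

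A few genes had positive values in this comparison without passing the test. Rpl38, a large subunit protein needed in mouse embryos for translation of a set of Hox mRNAs, had 230, 273 and 269 CPM with TGFβ + RA, against 221, 216 and 238 CPM with TGFβ. The lowest TGFβ + RA library fell inside the TGFβ range, and the log2 fold change was 0.20 (adjusted p = 0.0836). Rps27rt was at 0.23 (adjusted p = 0.217), Rps27 at 0.18, Rpl36 at 0.17 and Rpl37a at 0.11. Library 1 of TGFβ + RA had the lowest family share of its group, and without it 5 of the 86 genes rose.

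**Figure D3:**
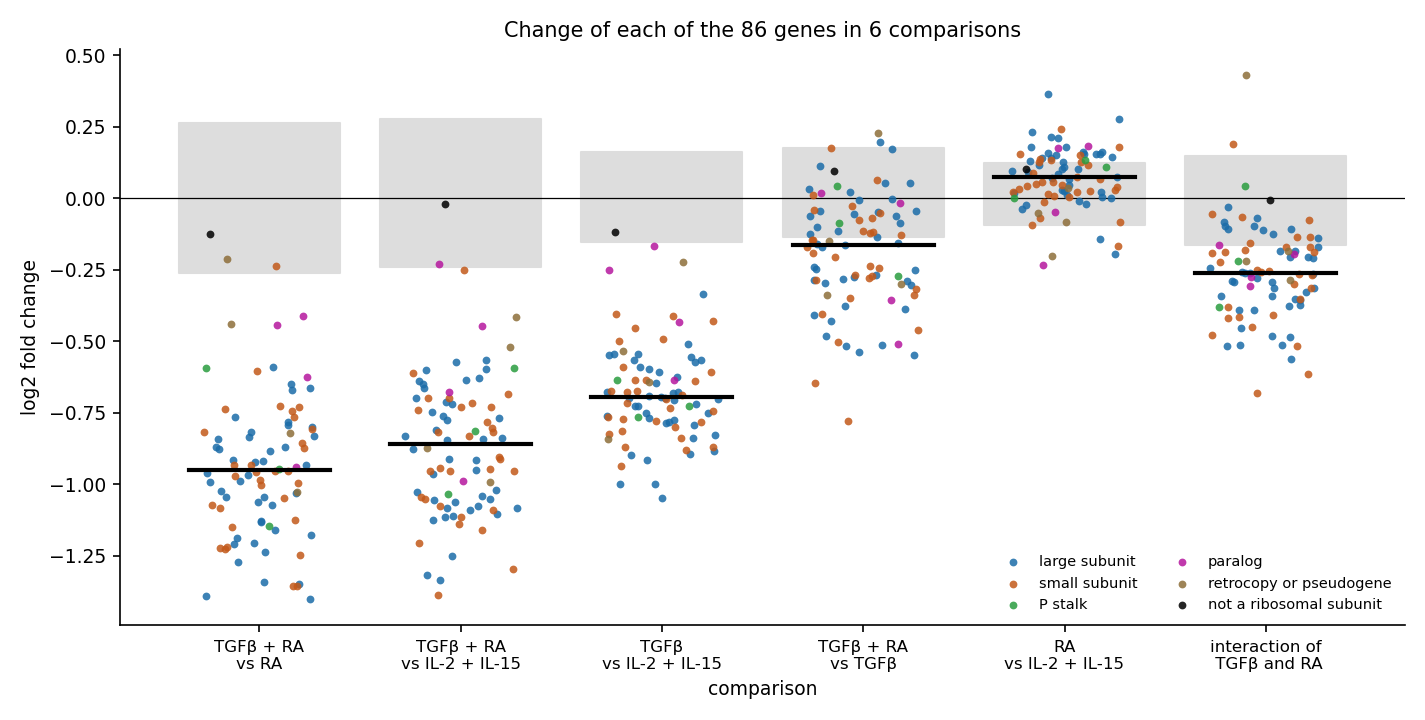
Log2 fold change of each of the 86 genes (points, coloured by kind) in 5 comparisons between cultures and the interaction; black lines are medians of the 86, and grey boxes run between the lower and upper quartile of the 2292 other genes of high level. The values of TGFβ + RA against RA reach down to -1.40 and those of TGFβ against IL-2 + IL-15 to -1.05, while those of RA against IL-2 + IL-15 lie between -0.23 and 0.37.

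RA without TGFβ moved few of these genes, and those upward. In RA against IL-2 + IL-15 cultures 8 of the 86 genes rose and 0 fell, against 12.4% of all tested genes called higher and 14.3% called lower, so the share of 8 in 86 lay below the background. The median log2 fold change was 0.07, with 70 values above 0 and 16 below. Rpl38 had 514, 553 and 439 CPM with RA, against 400, 363 and 405 CPM with IL-2 + IL-15, with a log2 fold change of 0.37 ± 0.09 (adjusted p = 0.00601). Its groups did not overlap, and it stayed called whichever library was left out. Rpl36 (0.28, adjusted p = 0.0458), Rps2 (0.24, adjusted p = 0.0243), Rpl3 (0.23, adjusted p = 0.0401), Rpl10a (0.22, adjusted p = 0.0472), Rpl29 (0.21, adjusted p = 0.038), Rpl7l1 (0.18, adjusted p = 0.0427) and Rpl36al (0.18, adjusted p = 0.0418) were the other 7.

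The count of 8 depended on single libraries. Over the 12 libraries left out in turn, the call of Rpl10a was lost in 9 cases, those of Rpl36 and Rpl36al in 8 each, that of Rpl7l1 in 7, that of Rpl3 in 6 and that of Rps2 in 2. It was 31 without library 3 of RA, 1 without library 2 of RA and 5 without library 1 of RA. It was 5, 2 and 1 without libraries 1, 2 and 3 of IL-2 + IL-15, 4, 3 and 2 without libraries 1, 2 and 3 of TGFβ, which enter only the shared spread, and 3 without library 2 of TGFβ + RA. The call of Rpl29 was lost too, without library 3 of IL-2 + IL-15 or library 2 of RA, where only Rpl38 was called. It was also lost without library 2 of IL-2 + IL-15 or library 3 of TGFβ, where only Rpl38 and Rps2 were called. The lowest values were those of Rps27l (-0.23), Rpl35a (-0.20), Rps27rt (-0.20) and Rps20 (-0.17, adjusted p = 0.0604), none of them called.

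Whether the change with RA differed with and without TGFβ was tested as the interaction of TGFβ and RA. Called higher with RA in the absence of TGFβ and lower in its presence were 2 of the 86 genes, Rps2 and Rpl3. The share of all tested genes with this pair of calls was not counted. The interaction, which is the log2 fold change with RA in the presence of TGFβ minus that in its absence, was below 0 and called in 33 of the 86 genes, and above 0 and called in 0, against 12.3% and 6.95% of all tested genes. Its median over the 86 was -0.26, and 19 of 43 large subunit genes and 12 of 31 small subunit genes were called. The count was 54 without library 3 of RA, 21 without library 1 of TGFβ, and 19 without library 3 of IL-2 + IL-15, library 3 of TGFβ or library 1 of TGFβ + RA. None of the 33 exceeded 1.5-fold by glmTreat, against 3.59% of all tested genes.

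Rps26 had the lowest interaction. It had 178, 208 and 201 CPM with TGFβ + RA and 306, 293 and 321 CPM with TGFβ, and 442, 431 and 373 CPM with RA and 421, 396 and 401 CPM with IL-2 + IL-15. Its TGFβ + RA and TGFβ libraries did not overlap, its RA and IL-2 + IL-15 libraries did, and the interaction was -0.68 ± 0.10 (adjusted p = 0.000378). Rps20 (-0.61 ± 0.09, adjusted p = 0.000279), Rpl28 (-0.56 ± 0.09, adjusted p = 0.000911), Rps12 (-0.52 ± 0.11, adjusted p = 0.00622) and Rpl10 (-0.51 ± 0.09, adjusted p = 0.00191) came next. Rpl28 had 260, 302 and 292 CPM with TGFβ + RA, 430, 389 and 400 CPM with TGFβ, 657, 622 and 592 CPM with RA and 637, 580 and 594 CPM with IL-2 + IL-15. Its TGFβ + RA libraries lay below the TGFβ libraries, while its RA and IL-2 + IL-15 libraries overlapped.

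Fitting each gene against the summed counts of the 86 shows which genes moved unlike the family. In TGFβ against IL-2 + IL-15, 18 of the 86 were above the family and 9 below; on this scale 79.0% of all tested genes were above and 3.26% below, since the family itself had fallen. Above the family in TGFβ + RA against RA were 28 and below it 20, against 80.6% and 6.31% of all. Against IL-2 + IL-15, TGFβ + RA had 28 above and 23 below, with 77.1% and 8.63% of all tested genes above and below; without library 3 of IL-2 + IL-15, 15 were below. The comparisons of TGFβ with IL-2 + IL-15 and of TGFβ + RA with RA share no library, and 14 genes were above the family in both, of 18 in the first and 28 in the second, and 8 were below in both, of 9 and 20. None of the 86 was above in one and below in the other. The shares of all tested genes above or below in both were not counted. They cannot exceed 79.0% above and 3.26% below, the shares in TGFβ against IL-2 + IL-15.

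The 14 were Rps19bp1, Rps27l, Rpl7l1, Rpl37rt, Rps27, Rpl37, Rps29, Rpl36al, Rpl41, Rps3a1, Rps25, Rpl11, Rpl7 and Rpl8, so 3 of the 4 paralogs and the non-subunit gene are among them. Relative to the family, Rps27 was higher by 0.74 ± 0.07 in TGFβ + RA against RA (adjusted p = 6.98e-08) and by 0.29 ± 0.07 in TGFβ against IL-2 + IL-15 (adjusted p = 0.00165). Rpl37 was higher by 0.39 ± 0.07 in both (adjusted p = 4.17e-05 and 5.91e-05). The 8 below were Rpl12, Rpl32, Rpl10a, Rps2, Rpl13, Rps19, Rpl39 and Rpl29. Rpl12 was lowest, at -0.41 ± 0.06 in TGFβ + RA against RA (adjusted p = 1.42e-05) and -0.33 ± 0.06 in TGFβ against IL-2 + IL-15 (adjusted p = 0.000181).

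**Figure D4:**
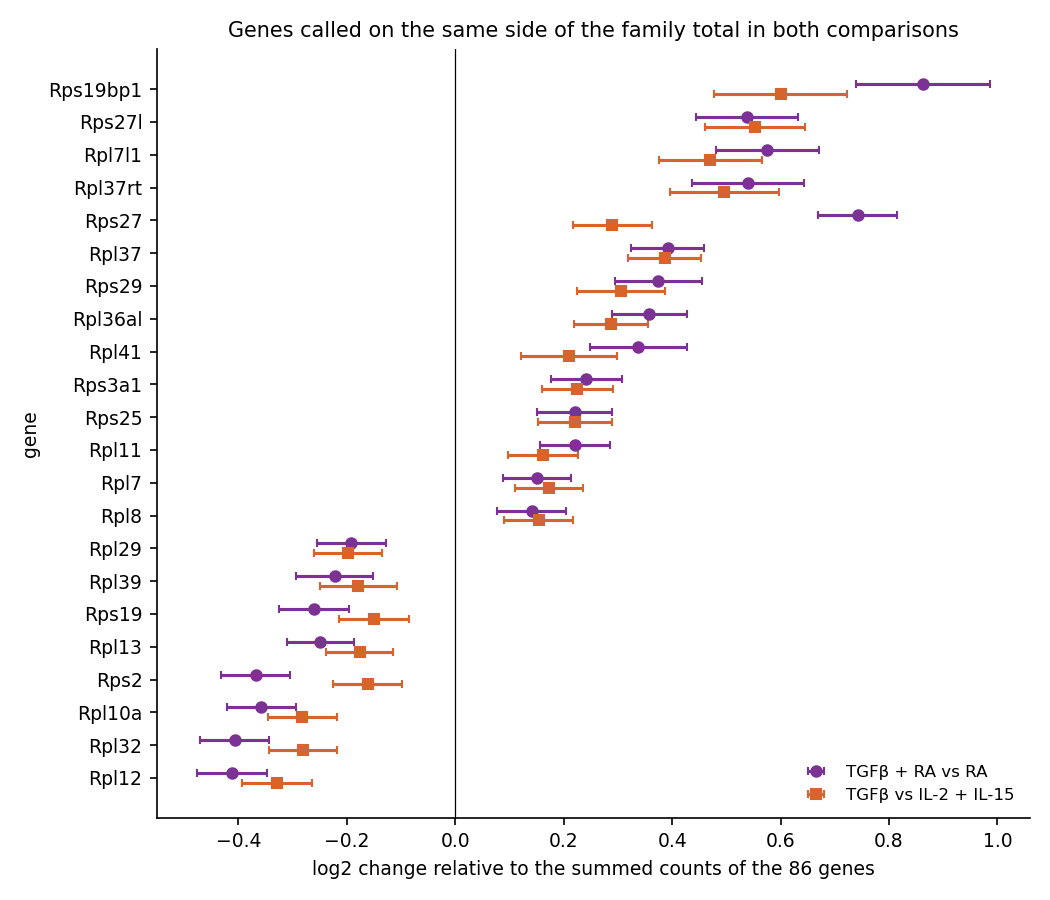
The 22 genes called on the same side of the family total in both TGFβ comparisons. The horizontal axis is the log2 change relative to the summed counts of the 86 genes, with bars of 1 SE; circles are TGFβ + RA against RA and squares TGFβ against IL-2 + IL-15. Rps19bp1 lies farthest to the right, at 0.86 and 0.60, and Rpl12 farthest to the left, at -0.41 and -0.33.

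With RA, 5 genes stood on the same side of the family with and without TGFβ. Above the family in TGFβ + RA against TGFβ were 14 genes and below it 16, against 35.5% and 13.7% of all tested genes. Of the 86, the share above lay under that background and the share below lay over it. In RA against IL-2 + IL-15, 1 was above and 4 were below, against 5.55% and 14.2% of all, so both shares lay under the background. The gene above, Rpl38, and the 4 below, Rps20, Rpl35a, Rpl31 and Rps27l, were on the same side in both, and these comparisons share no library. How many of all tested genes lay on the same side in both was not counted. Rpl38 was at 0.38 ± 0.07 in TGFβ + RA against TGFβ (adjusted p = 0.000646) and 0.28 ± 0.07 in RA against IL-2 + IL-15 (adjusted p = 0.0117). Rps20 was at -0.60 ± 0.06 (adjusted p = 1.44e-06) and -0.25 ± 0.06 (adjusted p = 0.00893). Without library 2 of IL-2 + IL-15 or library 1 of RA, the count above in RA against IL-2 + IL-15 was 0, and without library 1 of IL-2 + IL-15 the count below was 1. The same count below was 2 without library 3 of IL-2 + IL-15 or library 2 of RA, and the count above was 2 without library 3 of RA or library 1 of TGFβ + RA. Across the 86 genes, the log2 fold changes of the 2 RA comparisons had a Pearson and a Spearman correlation of 0.53 each.

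The interaction on this scale was called in 6 genes. Rps27rt (0.68 ± 0.18, adjusted p = 0.013), Rps27 (0.45 ± 0.10, adjusted p = 0.00656) and Rplp1 (0.31 ± 0.09, adjusted p = 0.0202) were above 0, and Rps26 (-0.41 ± 0.10, adjusted p = 0.00874), Rps20 (-0.35 ± 0.09, adjusted p = 0.0125) and Rpl28 (-0.30 ± 0.11, adjusted p = 0.0472) were below. On this scale 22.4% of all tested genes were above and 6.12% below. Rps27 had 642, 792 and 863 CPM with TGFβ + RA, 684, 667 and 680 CPM with TGFβ, 856, 978 and 874 CPM with RA and 908, 904 and 922 CPM with IL-2 + IL-15. Its TGFβ + RA libraries spread over both sides of the TGFβ libraries. Rps27 and Rps27rt share 98.6% and 91.1% of their 50-base words with other annotated transcripts, so reads of the pair cannot be told apart with certainty and they are not separate evidence.

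All 3 P stalk genes fell in each comparison of a culture with TGFβ and one without it. Rplp0, its anchor on the ribosome, had 1647, 1808 and 1783 CPM with TGFβ + RA, 2121, 2074 and 2124 CPM with TGFβ, 3911, 4174 and 3493 CPM with RA and 3734, 3624 and 3373 CPM with IL-2 + IL-15. Its levels fell by 0.76 on the log2 scale in TGFβ against IL-2 + IL-15 (adjusted p = 1.46e-06) and by 0.27 in TGFβ + RA against TGFβ (adjusted p = 0.00643). Rplp2, one of the acidic proteins that the anchor carries, had 510, 558 and 592 CPM with TGFβ + RA, 590, 575 and 596 CPM with TGFβ, 1044, 1190 and 963 CPM with RA and 966, 960 and 990 CPM with IL-2 + IL-15. Rplp2 and its partner Rplp1 fell with TGFβ, by 0.73 (adjusted p = 3.32e-06) and 0.64 (adjusted p = 2.63e-05), and neither was called in TGFβ + RA against TGFβ (Rplp2 -0.08, adjusted p = 0.374; Rplp1 0.04, adjusted p = 0.686). Rplp1 had 702, 846 and 824 CPM with TGFβ + RA, within reach of 748, 754 and 797 CPM with TGFβ.

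Subunit proteins known for a role of their own fell too. Rpl5 and Rpl11, which with the 5S ribosomal RNA bind Mdm2 and so stabilise p53 when ribosome assembly fails, fell by 0.70 (adjusted p = 2.26e-06) and 0.56 (adjusted p = 1.25e-05) on the log2 scale in TGFβ against IL-2 + IL-15. Rps6, the substrate of the S6 kinases, had 444, 477 and 520 CPM with TGFβ + RA, 530, 529 and 537 CPM with TGFβ, 901, 992 and 898 CPM with RA and 937, 890 and 884 CPM with IL-2 + IL-15. The Rps6 libraries with TGFβ were all below those without, and its log2 fold change in TGFβ against IL-2 + IL-15 was -0.76 (adjusted p = 4.73e-07). Rps19, mutated in human Diamond-Blackfan anaemia, was at -0.87 (adjusted p = 9.61e-07), Rpsa, also known as a laminin receptor, at -0.80 (adjusted p = 5.12e-06) and Rps3, which also takes part in DNA repair, at -0.82 (adjusted p = 8.88e-07). Rps27a, made as a fusion with ubiquitin, was at -0.78 (adjusted p = 3.68e-07), and Rpl13a, which in human cells also represses translation of inflammatory mRNAs, at -0.59 (adjusted p = 0.000296). With RA added to TGFβ, Rpl5, Rps19 and Rpsa fell further, by 0.25 (adjusted p = 0.0094), 0.34 (adjusted p = 0.00254) and 0.28 (adjusted p = 0.0161), whereas Rpl11, Rps6, Rps3, Rps27a and Rpl13a were not called. The call of Rpsa was lost without library 3 of TGFβ (-0.25, adjusted p = 0.0585) or library 1 of TGFβ + RA (-0.19, adjusted p = 0.0736), and that of Rpl5 without library 3 of TGFβ (-0.20, adjusted p = 0.0519).

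The 4 paralogs differed from each other. Counts of a paralog were set against those of its parent gene in the same library, which is free of scaling between libraries. The genes of these pairs share from 12.2% (Rpl7l1) to 98.6% (Rps27) of their 50-base words with other transcripts, with 85.5% for Rpl36a and 63.3% for Rpl36al. How reads that match several places were counted is not given, so a ratio need not be the true proportion of the mRNAs. Rpl7l1, a protein found in the nucleolus with large subunit precursors, had 8.27%, 6.70% and 6.97% of the counts of Rpl7 with TGFβ + RA and 6.41%, 5.46% and 5.80% with TGFβ. With RA it had 5.24%, 5.25% and 5.83%, and with IL-2 + IL-15 5.16%, 4.38% and 4.85%. In each of the 5 comparisons of 2 cultures, the libraries with the added factor lay above those they were compared with. Rpl36al had 65.5%, 65.4% and 67.8% of the counts of Rpl36a with TGFβ + RA, 59.3%, 55.2% and 55.7% with TGFβ, 47.8%, 43.3% and 46.6% with RA and 47.1%, 43.0% and 42.9% with IL-2 + IL-15. The TGFβ + RA and TGFβ libraries were above the others, and those of RA and IL-2 + IL-15 overlapped.

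Rps27l and Rpl22l1 took the other course with RA. Rps27l, a p53 target in human and mouse cells, had 3.88%, 3.68% and 3.43% of the counts of Rps27 with TGFβ + RA, against 5.96%, 5.55% and 6.13% with TGFβ. Rpl22l1, which can replace the RNA-binding subunit Rpl22, had 23.5%, 21.9% and 21.0% of the counts of Rpl22 with TGFβ + RA, against 28.8%, 27.6% and 26.0% with TGFβ. Neither pair of conditions overlapped. With RA these shares were 4.23% ± 0.63 and 22.3% ± 0.79, and with IL-2 + IL-15 4.91% ± 0.61 and 25.7% ± 2.39 (SD, n = 3 each). Each gene on its own also fell in TGFβ + RA against TGFβ, Rps27l by 0.51 on the log2 scale (adjusted p = 0.00137) and Rpl22l1 by 0.35 (adjusted p = 0.00106), while Rpl7l1 (0.02, adjusted p = 0.835) and Rpl36al (-0.02, adjusted p = 0.864) were not called. With 3 libraries a group the exact two-sided permutation test cannot go below 0.1. That value was reached in all 5 comparisons of Rpl7l1 and in 4 of Rpl36al, and over the 20 ratio tests the smallest adjusted p was 0.167, so no ratio difference passed.

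**Figure D5:**
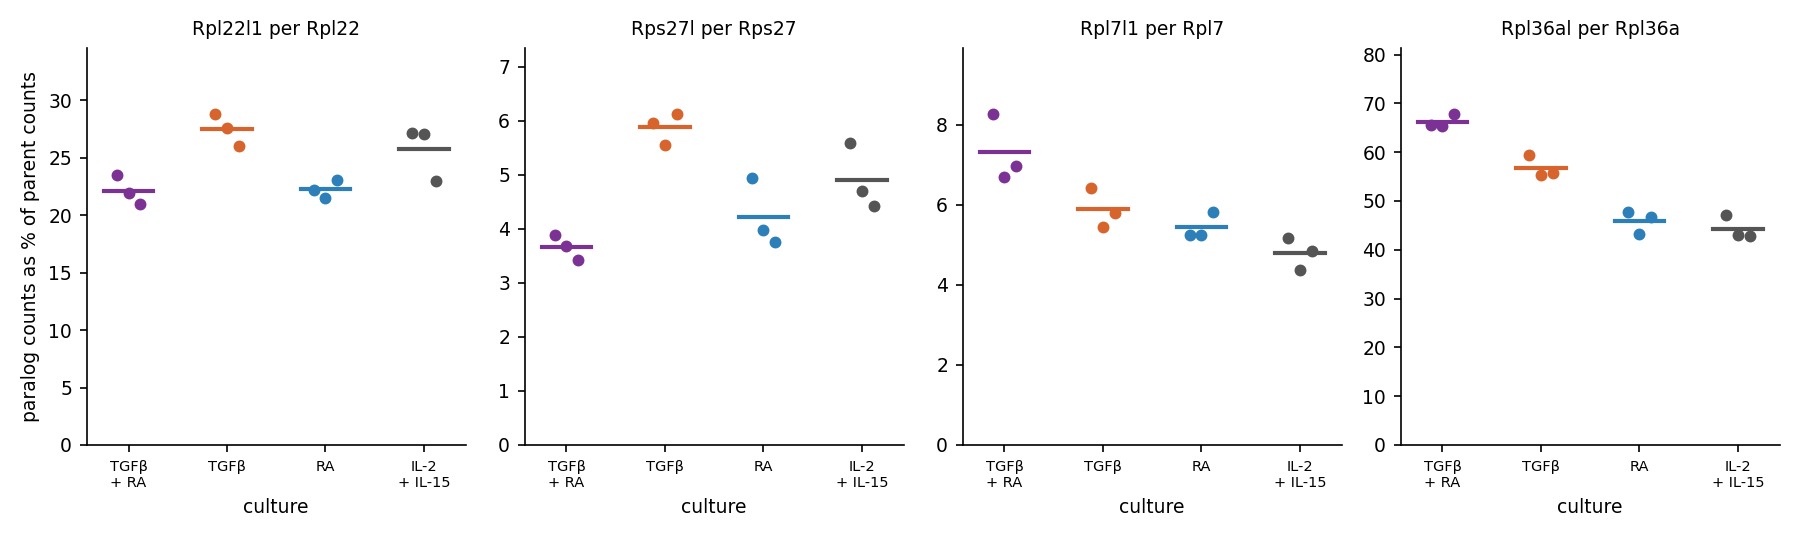
Counts of each paralog in percent of the counts of its parent gene (vertical axis, starting at 0) by culture (horizontal axis). Points are libraries and bars group means; Rpl36al per Rpl36a averages 66.3% with TGFβ + RA and 44.3% with IL-2 + IL-15, and Rps27l per Rps27 averages 3.66% with TGFβ + RA and 5.88% with TGFβ.

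The 4 retrocopies and pseudogenes kept by the rule had low levels, and 3 of them fell in TGFβ against IL-2 + IL-15. They share 51.0% to 91.1% of their words with other transcripts, so some of their counts may come from parent genes. Rpl39-ps had 2.91, 4.46 and 5.04 CPM with TGFβ + RA, 4.52, 4.77 and 4.68 CPM with TGFβ, 8.60, 10.1 and 6.95 CPM with RA and 8.08, 8.42 and 8.57 CPM with IL-2 + IL-15. Its TGFβ libraries lay below its IL-2 + IL-15 libraries (-0.84 ± 0.17, adjusted p = 0.00124). Rps3a2 fell in the same comparison (-0.54 ± 0.13, adjusted p = 0.00455), as did Rps27rt (-0.64 ± 0.14, adjusted p = 0.00206), whereas Rpl37rt was not called, as given above. In all, 53 of the 86 genes share over 50% of their 50-base words with other transcripts and 7 share over 90%, so counts can be split between copies. The median log2 fold change in TGFβ against IL-2 + IL-15 was -0.69 for those 53 and -0.70 for the 33 with less sharing. The medians in TGFβ + RA against RA were -0.95 and -0.95.

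Rps19bp1 had nearly even levels, with 13.7, 11.5 and 12.4 CPM with TGFβ + RA, 11.8, 10.9 and 12.2 CPM with TGFβ, 14.6, 12.9 and 13.4 CPM with RA and 13.2, 12.9 and 11.9 CPM with IL-2 + IL-15. All 4 ranges overlap, apart from those of TGFβ and RA. It was not called in any comparison.

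The 11 symbols below the threshold include the tissue-restricted copies of subunit genes. Rpl10l, a copy of Rpl10 known from the testis, had 0 counts in all 12 libraries, and Rpl3l, the copy of Rpl3 known from muscle, had a mean of 0.00683 CPM. Rpl39l, known from male germ cells, had 0.682 CPM, and Rps4l, a copy of Rps4x, 2.27 CPM.

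Genes with and without a run of pyrimidines at the annotated start had like changes with TGFβ. A window without the run does not show that the mRNA lacks the TOP motif. This split therefore cannot tell whether the motif bears on the change. Of 57 subunit genes with a promoter entry, 27 had the run and 30 did not. All 27 and all 30 fell in TGFβ against IL-2 + IL-15, with medians of -0.72 and -0.71. Of these, 9 of the 27 and 17 of the 30 fell in TGFβ + RA against TGFβ, with medians of -0.14 and -0.20; no test of this difference was made. Rpl12 and Rps12, with and without the run in the windows above, both fell in each comparison of a TGFβ culture with a culture without TGFβ.

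Length and level of the transcripts can affect counts, so both were set beside the change. Among other genes with at least 100 CPM and an exonic length under 1000 bases, of which there were 26, the median log2 fold change was -0.24 in TGFβ against IL-2 + IL-15 and 57.7% were called lower. Among the 112 between 1000 and 2000 bases it was -0.08 with 33.9% called lower, and among the 1625 over 4000 bases it was 0.02 with 23.6% called lower. Across the 86 genes, Spearman's rho of the same log2 fold change was -0.36 with the mean level and -0.05 with transcript length. The part of transcript length in the fall of the family was not tested.

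Other genes of translation and ribosome assembly were read from lists chosen by function. In TGFβ against IL-2 + IL-15, 2 cytosolic ribosomal protein genes with other names fell. Fau, made as a fusion with a protein like ubiquitin, had a log2 fold change of -0.51, and Rack1, the scaffold on the small subunit, one of -0.87. Of 14 other transcripts listed for a TOP motif, all 14 fell (median -0.60), and the motif itself was not checked for this list. Among them were the nucleolar chaperone Npm1 (-1.19, adjusted p = 7.26e-08) and Impdh2, an enzyme of guanine nucleotide synthesis (-0.72, adjusted p = 4.86e-08). Npm1 and Gnl3 also stand in the next list, so the lists are not separate evidence. Of 37 genes of ribosomal RNA synthesis and processing, 31 fell and 1 rose (median -0.53). These included the transcription factor Myc, with 98.8, 105 and 108 CPM with TGFβ against 237, 229 and 230 CPM with IL-2 + IL-15 (-1.15 ± 0.05, adjusted p = 1.17e-09), and the rRNA methyltransferase Nop2 (-0.74, adjusted p = 3.55e-08).

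Of 10 elongation genes, 7 fell and 3 rose; Eef1b2 fell (-0.74, adjusted p = 1.79e-06) and Eef2k, the kinase that inhibits Eef2, rose (0.62, adjusted p = 2.89e-05). Of 31 initiation genes 23 fell (median -0.28), and of 23 chaperones and import factors of ribosomal proteins 13 fell and 1 rose (median -0.25). In the list of 26 genes of mTORC1 and TOP control, 8 fell and 5 rose (median -0.00). Larp1, which binds the TOP motif, fell by 0.45 (adjusted p = 2.6e-06), and Eif4ebp1, an mTORC1 substrate that blocks initiation, fell by 0.95 (adjusted p = 4.14e-07). Rptor rose by 0.49 (adjusted p = 6.34e-06) and Rps6ka3 by 0.41 (adjusted p = 3.57e-05), so the list did not move in a single direction. Of 77 mitochondrial ribosomal protein genes, 24 fell and 0 rose (median -0.14). These counts stand against 22.4% of all tested genes called lower and 20.7% called higher in this comparison.

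Fewer genes of these lists were called in TGFβ + RA against TGFβ. Of the 14 other transcripts listed for a TOP motif 5 fell (median -0.13), of 10 elongation genes 5 fell and 0 rose, and of 37 genes of ribosomal RNA synthesis 5 fell and 6 rose (median 0.03), against 22.7% of all tested genes called lower and 20.3% called higher, so the share of the 37 lay below the background in both directions. Myc rose by 0.15 there (adjusted p = 0.0247), with 117, 117 and 112 CPM with TGFβ + RA against 98.8, 105 and 108 CPM with TGFβ. Impdh2 fell, by 0.46 (adjusted p = 2.76e-06), and its interaction was -0.47 (adjusted p = 0.00021). With RA alone, Myc rose by 0.28 (adjusted p = 0.000652), and of the 37 genes 7 rose and 2 fell, against 12.4% and 14.3% of all tested genes.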

How the data were processed

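RNA from 12 cultures was sequenced from stranded mRNA libraries, per the labels' protocols, and the deposited values are whole-number counts per gene; STAR, featureCounts and the build GRCm38 are named in the submitters' processing notes, while versions, the strand setting and the handling of reads that match several places are not given in the sources used here. Genes with low counts were removed with filterByExpr (minimum count 10), which left 14009 genes including all 86. Counts were scaled by TMM and tested with edgeR 4.0.16 (glmQLFit and glmQLFTest, R 4.3.3, limma 3.58.1) in 1 model of 4 group means with 8 residual degrees of freedom, over the whole table, with Benjamini-Hochberg adjustment over 14009 genes and a threshold of 0.05; SE is the standard error of the log2 fold change. CPM per library are TMM-scaled. Genes were also fitted with the summed counts of the 86 as library size. The fit was checked on simulated counts with known changes. The range of library totals is given in the report, and intervals cover counting error only.

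Genes named are the 5 highest and 5 lowest log2 fold changes in each comparison and the interaction, paralog pairs, genes with a role of their own, the 5 highest and 5 lowest levels per kilobase, genes called against the majority (where 8 or fewer), and up to 4 called genes a list; the genes called relative to the family were named after their values were seen. The 86 genes and the lists were chosen with earlier results of these data known. Transcript and overlap annotation is from GENCODE vM21; 4 genes of the lists stand in the files under an older symbol, Rack1 among them as Gnb2l1. Alternatives were DESeq2 1.42.0, other scalings, filters, level thresholds, glmTreat, each library left out, only the groups compared, and a replicate block. Some genes of the marker and translation lists are not reported here.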

Additional observations from a re-analysis of the deposited data

Results flagged for a closer look

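Each result here is a difference in the RA effect between cultures with and without TGFβ, tested as the interaction of TGFβ and RA. The interaction was called and below 0 in 33 of the 86 ribosomal protein genes, and above 0 in 0. Of all tested genes, 12.3% were called below 0 and 6.95% above. Asked to exceed 1.5-fold, 0 of the 86 passed below 0, against 3.59% of all tested genes. Its lowest log2 values were those of Rps26 (-0.68), Rps20 (-0.61), Rpl28 (-0.56), Rps12 (-0.52) and Rpl10 (-0.51). Measured against the summed counts of the 86 genes, the interaction was called in Rps26 (-0.41), Rps20 (-0.35), Rpl28 (-0.30), Rplp1 (0.31), Rps27 (0.45) and Rps27rt (0.68). On that scale 22.4% of all tested genes were above 0 and 6.12% below, so 3 of the 86 on each side lay below the background. With each library left out in turn, the count of 33 ran from 19 to 54.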

How the results depend on the processing

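For the counts of genes called, medians and summed shares, 567 of 607 values under the alternatives stayed within 1.5 times the count or 1 SD, and none changed direction. Asked to exceed 1.5-fold, 26 genes were lower in TGFβ against IL-2 + IL-15, 1 in TGFβ + RA against TGFβ, 0 in the interaction, and 0 higher in RA against IL-2 + IL-15. The shares of all tested genes were 4.32%, 8.4%, 3.59% and 1.82% in the same order. In RA against IL-2 + IL-15, the count of higher genes was 4 with total counts as scaling (with 1 lower), 2 with only the groups compared, and 1 was lower by the DESeq2 Wald test. With only the groups compared, 1 gene was higher in TGFβ + RA against TGFβ. With total counts the median in TGFβ + RA against RA was -0.86. With the geometric mean of the 86 as scaling, 15 genes were below the family in TGFβ against IL-2 + IL-15. The cause of these moves was not tested.

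With each library left out in turn, the counts higher and lower ran from 1 to 31 and 0 to 1 in RA against IL-2 + IL-15, 0 to 0 and 83 to 83 in TGFβ against IL-2 + IL-15, 0 to 5 and 30 to 45 in TGFβ + RA against TGFβ, and 0 to 2 and 19 to 54 in the interaction. Above and below the family they ran from 0 to 2 and 1 to 4 in RA against IL-2 + IL-15, 12 to 20 and 6 to 10 in TGFβ against IL-2 + IL-15, and 9 to 17 and 12 to 17 in TGFβ + RA against TGFβ; in TGFβ + RA against IL-2 + IL-15, 15 to 26 were below, the lowest without library 3 of IL-2 + IL-15. The lowest count above in TGFβ + RA against TGFβ, 9, came without library 3 of TGFβ.

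Same-numbered libraries of different conditions correlated by -0.00391 to 0.341, over 0.1 in 10 of 18 pairs and in all 3 pairs of RA with IL-2 + IL-15. Differently numbered libraries were not correlated for reference, so these values do not settle whether the numbers are pairs. The numbers were not used as pairs in the main fit, and whether they mark a shared batch or animal was not tested. With a replicate block 6 genes rose in RA against IL-2 + IL-15, 83, 85, 40 and 84 fell in TGFβ against IL-2 + IL-15, TGFβ + RA against IL-2 + IL-15, TGFβ + RA against TGFβ and TGFβ + RA against RA, and 34 were called in the interaction. For named genes, 3637 of 3848 values kept their side of the threshold, 165 were weaker, 46 stronger and 0 reversed. Counts are relative within a library, and no measure of RNA per cell was used here.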
